A study of Mus musculus with 37 samples.

Results

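The data show the response of cardiac fibroblasts (CFs) to medium from heart muscle cells that had been given ATP. Neonatal rat ventricular myocytes (NRVMs) were incubated with ATP or with vehicle, their conditioned medium (MCndM) was moved onto mouse CFs, and CF RNA was sequenced after 24 h or 48 h. The libraries were chosen by their labels alone: 4 libraries of CFs in ATP MCndM (2 at each time) and 4 of CFs in vehicle MCndM (labelled NC, 2 at each time). These are 8 of the 20 CF libraries and of the 37 samples of the series. All 8 came from immortalized CFs of wild type C57BL/6 origin that were seeded sparsely and kept in serum-free medium with insulin, transferrin and selenium before MCndM was added. All 8 were in medium conditioned by NRVMs, and within each time the ATP given to the NRVMs is the only labelled difference. The ATP dose is not given in the sources used here. The study gave CFs ATP MCndM as a control for medium from myocytes given the ectonucleotidase ENPP1 together with ATP. The labels do not say how this line was immortalized; the study used an SV40 antigen for CFs, and the large T antigen of that virus is known to bind p53.

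Extracellular ATP is a danger signal. Cells sense it through P2X channels and P2Y receptors, and enzymes at the cell surface trim it to AMP and then adenosine, which acts on receptors of its own. CFs build and remodel the collagen-rich matrix of the heart, and after injury they can take on contractile myofibroblast features or show inflammatory gene programs. The transcription factor p53 is held low by Mdm2 and, when stabilised, switches on genes for cell cycle arrest, DNA repair, apoptosis and its own feedback.

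The libraries held 40231883 to 53233534 counts each, except vehicle 24 h replicate 1, which held 115824659. Mitochondrially encoded RNA made up 2.02% to 2.32% of the counts. Of 30892 genes in the table, 16544 had enough counts to be tested. CPM values below are counts relative to the TMM-scaled library size, so they compare libraries for 1 gene and not genes with each other. The study's methods call its replicates biological, without saying for these libraries whether they were separate cultures, and the labels do not say; the p-values measure only the spread between these libraries. Fold changes are log2 values of ATP over vehicle MCndM, and a gene is said to have risen or fallen when its adjusted p was under 0.05.

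Fibroblast markers were abundant in every library. The 12 markers summed to 9669 to 10300 CPM in vehicle and 7636 to 9240 CPM in ATP libraries, so the ranges did not overlap. Of the 11 that could be tested 1 rose and 6 fell, where 10.8% and 10.1% of all genes did, among them Pdgfra; without ATP 24 h replicate 1 the falls numbered 3. Endothelial markers summed to 7.598 and 8.696 CPM (vehicle) against 7.856 and 8.155 CPM (ATP) at 24 h. At 48 h they summed to 9.186 and 9.249 against 7.381 and 6.363, lower in both ATP libraries. Of the 4 that could be tested 1 fell and none rose across both times, a call lost without any 1 library of 48 h. The 7 smooth muscle or pericyte markers summed to 156 and 150.2 CPM (vehicle) against 122.4 and 132.8 CPM (ATP) at 24 h and to 173.1 and 165.5 against 188.7 and 164.6 at 48 h. They were lower in both ATP libraries at 24 h and overlapped at 48 h, and of the 5 that could be tested 2 fell (Myh11 and Mcam) and none rose across both times; 1 fell when any 1 library other than vehicle 24 h replicate 1 and ATP 24 h replicate 2 was left out. The 14 cardiomyocyte markers summed to 22.8 to 28.7 CPM in vehicle and 19.1 to 30.3 CPM in ATP libraries. At 24 h both ATP libraries (19.07 and 25.03 CPM) were below both vehicle libraries (28.66 and 27.29 CPM), and at 48 h they overlapped. Of the 13 that could be tested 1 fell and none rose across both times. In bulk RNA, fewer cells of a kind and less RNA per cell cannot be told apart.

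Across both times, with time as a covariate, 3459 genes (20.9% of those tested) differed between ATP and vehicle MCndM. Of these, 1788 (10.8%) were higher and 1671 (10.1%) lower. Most changes were small: the median size among called genes was 0.247 on the log2 scale, and 251 genes (1.52%) moved by at least 1. Of those, 156 rose and 95 fell. The median over all genes tested was -0.0033. At 24 h alone 3187 genes (19.3%) were called, 1542 higher and 1645 lower, and without vehicle 24 h replicate 1 the count was 1841. At 48 h alone 2334 (14.1%) were called, 1393 higher and 941 lower. The 48 h count was 1031 without vehicle 48 h replicate 1, 1506 without vehicle 48 h replicate 2 and 1345 without ATP 48 h replicate 1. Scaled to library totals alone, the split was 1811 higher and 1492 lower at 24 h and 1097 higher and 1515 lower at 48 h.

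**Figure D1:**
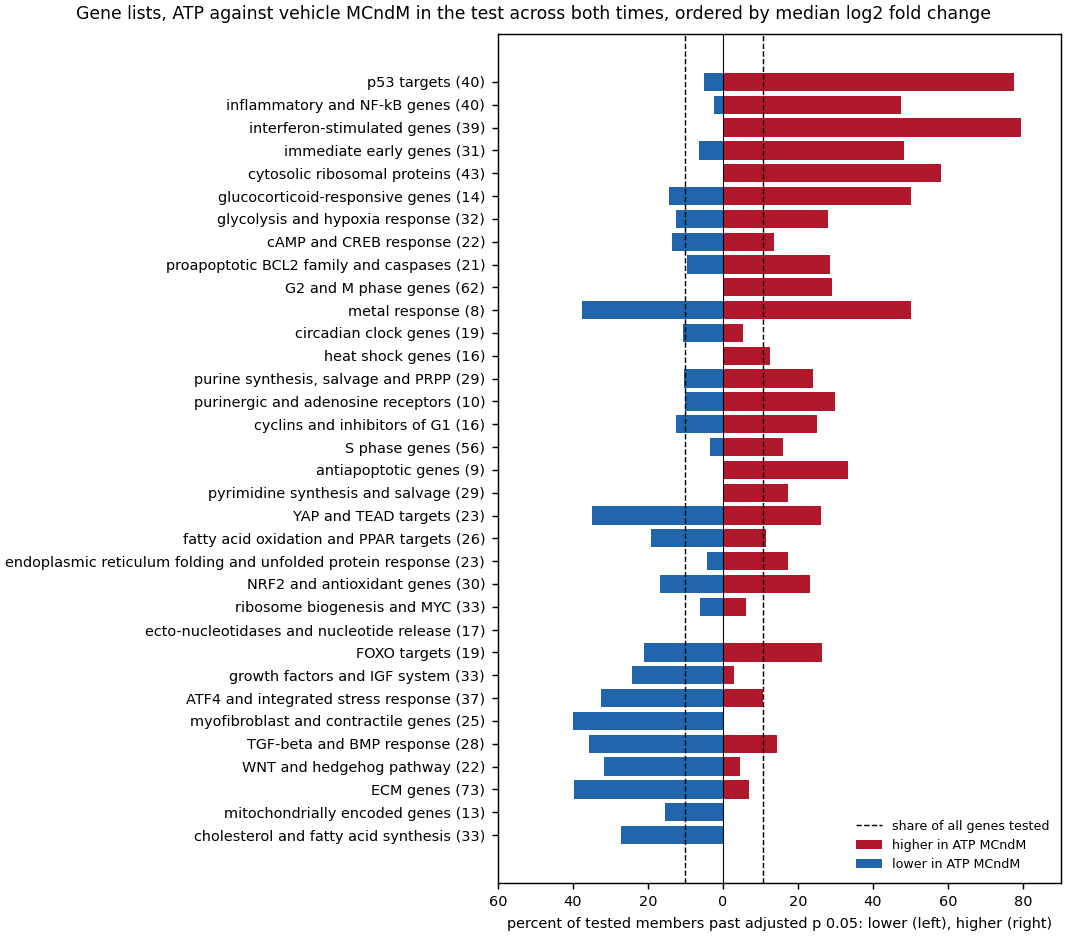
For each of 34 gene lists, bars give the percent of tested members (number in brackets) that were lower (left) or higher (right) in ATP than in vehicle MCndM at an adjusted p under 0.05 in the 1 test across both times, and dashed lines mark the 10.1% and 10.8% of all genes tested. Of 40 p53 targets 31 were higher, of 39 interferon-stimulated genes 31, and of 73 ECM (extracellular matrix) genes 29 were lower.

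Targets of p53 were higher in CFs given ATP MCndM. Of 40 targets tested, 31 rose and 2 fell, against 10.8% and 10.1% of all genes, with a median of 0.62 beside -0.0033 for all genes tested. At 24 h 30 had risen and 2 fallen (median 0.49), beside 9.32% and 9.94% of all genes. At 48 h 31 had risen and 1 fallen (median 0.71), beside 8.42% and 5.69%. Under every alternative fit of both times the number that rose was 31 or 32. The list shares members with the 21 genes that the study drew for the p53 pathway in these libraries, of which 19 rose and none fell; since those genes were drawn by the study from these samples, their direction is not independent evidence.

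Cdkn1a (chromosome 17, 29090979 to 29100722 in GRCm38), which encodes the cyclin-dependent kinase inhibitor p21, stood at 114 and 130.4 CPM in the vehicle libraries at 24 h, 138 and 175 in those at 48 h, 261 and 253 in the ATP libraries at 24 h and 386 and 341 in those at 48 h. Every ATP library lay above every vehicle library. The fold change was 1.15 ± 0.0897 SE, adjusted p = 1.32e-04, or 2.21-fold. Mdm2 (chromosome 10, 117688875 to 117710758), the ubiquitin ligase that removes p53, stood at 133 and 139.8 CPM (vehicle) against 232 and 232 CPM (ATP) at 24 h and 148 and 159 against 327 and 278 at 48 h. Its groups did not overlap either, with a change of 0.87 ± 0.0592 SE, adjusted p = 2.73e-06. Ccng1, a cyclin of the p53 feedback loop, read 168 and 184 CPM (vehicle) against 333 and 341 CPM (ATP) at 24 h and 205 and 237 against 528 and 475 at 48 h, a change of 1.06 ± 0.0685 SE, adjusted p = 5.80e-06.

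Further genes of the p53 pathway were named by the size of their change. Btg2, an antiproliferative gene, ranged over 27.5 to 35.4 CPM in vehicle and 56.0 to 74.4 CPM in ATP libraries (1.03 ± 0.0723 SE, adjusted p = 4.72e-06). Psrc1, a spindle-associated p53 target, ranged over 30.3 to 42.4 CPM in vehicle and 65.5 to 112 CPM in ATP libraries (1.23 ± 0.12 SE, adjusted p = 6.06e-04). Rprm, which holds cells in G2, was low throughout, at 1.19 to 2.42 CPM in vehicle and 2.70 to 5.64 CPM in ATP libraries, and rose by 1.19, adjusted p = 3.60e-05. Gtse1, a regulator of p53 in G2 and mitosis, ranged over 83.02 to 98.3 CPM in vehicle and 147 to 189 CPM in ATP libraries (0.89 ± 0.0537 SE, adjusted p = 4.14e-07). In none of these genes did an ATP library reach down to a vehicle library.

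Sesn1, a stress-responsive p53 target, went the other way. It stood at 38.8 and 34.4 CPM (vehicle) against 25.0 and 22.2 CPM (ATP) at 24 h and 41.0 and 38.0 against 28.1 and 31.5 at 48 h, a change of -0.52 ± 0.0654 SE, adjusted p = 9.01e-05. The other target that fell, Cd82, encodes a membrane tetraspanin and changed little (-0.17, adjusted p = 0.02). Its call was lost without either 24 h vehicle library, either 24 h ATP library or ATP 48 h replicate 2, with values from -0.21 to -0.13 over all alternatives. Trp53 itself, which encodes p53, read 221 and 213 CPM (vehicle) against 207 and 205 CPM (ATP) at 24 h and 212 and 209 against 202 and 207 at 48 h, a difference of -0.06, adjusted p = 0.18. Protein levels of p53 were not measured in these files.

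**Figure D2:**
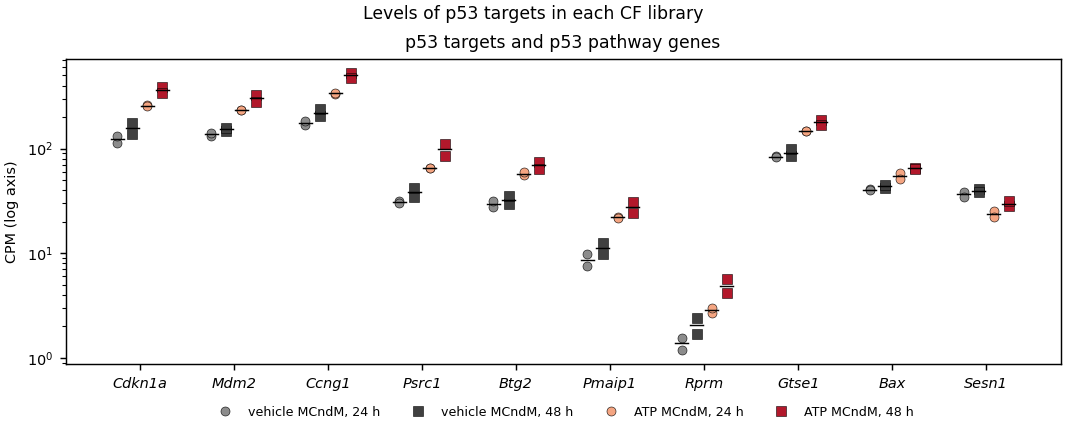
Points are CPM (log axis) of single CF libraries in vehicle MCndM (grey circles, 24 h; dark squares, 48 h) and ATP MCndM (orange circles, 24 h; red squares, 48 h), and short lines are means of 2 libraries. In 9 of the 10 genes ATP libraries sit above vehicle libraries, and in Sesn1 they sit below.

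Of 31 p53 targets with a RefSeq promoter (GRCm38.p6), only Cdkn1a had a 300-base window with a match to the p53 response element, so its promoter is shown. A match was both half-sites on either strand, adjoining or with a short spacer between them. The window runs from 250 bases before to 50 after the annotated start, and capitals mark the match, spacer included. Of 13984 such windows of tested genes, 0.0501% held a match. A match describes letters and is no evidence of binding.

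Cdkn1a, chr17:29090729-29091028 (plus strand): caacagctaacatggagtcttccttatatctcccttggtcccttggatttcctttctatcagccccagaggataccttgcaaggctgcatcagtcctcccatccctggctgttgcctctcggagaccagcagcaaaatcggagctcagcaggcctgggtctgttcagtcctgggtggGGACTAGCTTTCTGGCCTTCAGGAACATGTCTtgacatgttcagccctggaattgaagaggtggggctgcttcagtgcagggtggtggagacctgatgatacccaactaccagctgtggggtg

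Apoptosis genes gave a mixed picture. Pmaip1, whose product NOXA is a proapoptotic BH3-only protein, stood at 7.62 and 9.73 CPM in the vehicle libraries at 24 h, 9.73 and 12.6 in those at 48 h, 22.4 and 21.9 in the ATP libraries at 24 h and 31.1 and 24.4 in those at 48 h. All ATP values exceeded all vehicle values, and the change was 1.35 ± 0.11 SE, adjusted p = 2.41e-05. Bax, the pore-forming effector, ranged over 40.1 to 44.9 CPM in vehicle and 51.4 to 65.5 CPM in ATP libraries and rose by 0.50 ± 0.046 SE, adjusted p = 1.41e-06. The antiapoptotic Bcl2l1, which encodes BCL-XL, rose as well, with 56.8 to 60.1 CPM in vehicle and 81.5 to 96.1 CPM in ATP libraries (0.60 ± 0.0453 SE, adjusted p = 2.94e-07). Mcl1, a second survival gene, rose by 0.15, adjusted p = 0.00291, and Bcl2 read 17.2 to 20.2 CPM in vehicle and 17.2 to 19.6 CPM in ATP libraries, a difference of -0.01, adjusted p = 0.948.

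Over the lists, 6 of 21 proapoptotic BCL2 family and caspase genes rose and 2 fell, and 3 of 9 antiapoptotic genes rose and none fell, beside 10.8% and 10.1% of all genes; the proapoptotic falls were near that share. The 2 that fell were the BH3-only gene Bmf (-0.31, adjusted p = 0.00991) and Bok (-0.48, adjusted p = 0.0233), a BAX relative. The Bmf call was lost without vehicle 24 h replicate 1, and that of Bok without vehicle 24 h replicate 2, vehicle 48 h replicate 2, ATP 24 h replicate 1 or ATP 48 h replicate 2 and in the fit of all 20 CF libraries (adjusted p = 0.316); the values over all alternatives were -0.33 to -0.22 for Bmf and -0.54 to -0.41 for Bok. Bak1, the other pore-forming effector, was higher by 0.13, adjusted p = 0.0241, a call lost without vehicle 48 h replicate 1 or ATP 24 h replicate 1, with values from 0.11 to 0.17.

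Fas, the death receptor, differed by time. It stood at 20.8 and 21.9 CPM (vehicle) against 20.8 and 18.7 CPM (ATP) at 24 h and 21.8 and 24.3 against 36.0 and 30.8 at 48 h. At 24 h both ATP values lay at or just below the vehicle values, and at 48 h both lay above them. The effect at 24 h was -0.11, adjusted p = 0.414, that at 48 h was 0.54, adjusted p = 1.56e-04, and the difference between times was 0.65 ± 0.11 SE, adjusted p = 0.00461.

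Of 62 genes of G2 and mitosis, 18 rose and none fell across both times, beside 10.8% and 10.1% of all genes, with a median of 0.08; the rises numbered 10 with the replicate block and 11 with its numbers crossed at 24 h. By time, 29 rose and none fell at 24 h (9.32% and 9.94% of all genes did), with a median of 0.12, whereas at 48 h 5 rose and 1 fell (8.42% and 5.69% of all genes did), with a median of 0.01; the 5 were 2 without vehicle 48 h replicate 1 or without ATP 48 h replicate 1. The direct test of the difference between times, which called 2.94% of all genes, called 5 members, all with a smaller effect at 48 h; in the fit of all 20 CF libraries the count was 1. Cdc25b, a phosphatase that starts mitosis, was 1 of the 5, with 62.2 and 60.8 CPM (vehicle) against 78.7 and 78.1 CPM (ATP) at 24 h and 56.7 and 59.8 against 61.9 and 61.9 at 48 h and a difference of -0.26 ± 0.0642 SE, adjusted p = 0.0325. Ccnf, a mitotic cyclin of a ubiquitin ligase, rose at 24 h (0.32, adjusted p = 0.00108) and at 48 h (0.39, adjusted p = 2.67e-04).

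Of 56 S phase genes 9 rose and 2 fell across both times, beside 10.8% and 10.1% of all genes. The rises numbered 5 with library totals alone or with the replicate block. They numbered 15 with the 1 CPM filter or with 1 mean per medium and time. The falls lay between 1 and 4 over all alternatives. At 24 h 9 rose and 8 fell, beside 9.32% and 9.94%, the falls numbering 3 without vehicle 24 h replicate 1 and 5 without vehicle 24 h replicate 2. At 48 h 6 rose and none fell, beside 8.42% and 5.69%, the rises numbering 1 without vehicle 48 h replicate 1. The effect was more positive at 48 h in 4 members and more negative in 1, beside 2.52% and 0.417% of all genes; in the fit of all 20 CF libraries these were 1 and 0, and with library totals alone 1 was more positive. The ribonucleotide reductase subunit Rrm2, which makes deoxynucleotides, read 84.0 and 82.0 CPM (vehicle) against 100 and 96.7 CPM (ATP) at 24 h and 98.3 and 106 against 150.0 and 145 at 48 h and rose by 0.39 ± 0.0532 SE, adjusted p = 2.41e-04. The 2 that fell were the replicative helicase subunit Mcm4 (-0.14, adjusted p = 0.0219) and the DNA polymerase subunit Pold2 (-0.27, adjusted p = 0.00104). The Mcm4 call was lost without any one of the 4 libraries of 24 h or without ATP 48 h replicate 1, with values from -0.16 to -0.10. Ccnd1, the cyclin that drives entry into the cycle, rose, with 23.3 to 51.4 CPM in vehicle and 41.6 to 71.5 CPM in ATP libraries (0.64 ± 0.0687 SE, adjusted p = 7.27e-05), although vehicle levels at 24 h lay above ATP levels at 48 h. Cdkn1b, which encodes the inhibitor p27, fell, with 149 to 156 CPM in vehicle and 124 to 127 CPM in ATP libraries (-0.28 ± 0.0311 SE, adjusted p = 9.55e-06).

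The promoter of Ccnf is shown because it had the largest rise among the mitotic genes whose window held the cell cycle homology region letters TTTGAA on either strand (capitals). Of 51 G2 and mitosis genes with a window, 36 held these letters, as did 14.3% of all 10945 tested genes with a window. The window is taken as above, and a gene counts when any of its windows holds the letters.

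Ccnf, chr17:24251360-24251659 (minus strand): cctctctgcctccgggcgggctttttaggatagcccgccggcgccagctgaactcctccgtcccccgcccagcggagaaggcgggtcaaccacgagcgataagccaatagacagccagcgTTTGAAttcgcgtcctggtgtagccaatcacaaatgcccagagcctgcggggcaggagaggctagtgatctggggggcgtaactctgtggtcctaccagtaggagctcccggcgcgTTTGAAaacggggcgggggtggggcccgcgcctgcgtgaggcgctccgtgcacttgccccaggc

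Interferon-stimulated genes rose, most of them by small steps. Of 39 tested, 31 rose and none fell, beside 10.8% and 10.1% of all genes, with a median of 0.23. At 24 h 26 rose, beside 9.32% of all genes, and at 48 h 27, beside 8.42%. In the fit of all 20 CF libraries the rises numbered 21 for both times together. At single times that fit called 10 at 24 h and 12 at 48 h, where it called 853 and 956 of all genes higher. Without vehicle 48 h replicate 1 the 27 became 14. The 4 that led the list were Oas3, Zbp1, Oas2 and Ifi27. In 6 of the 39 all ATP libraries lay above all vehicle libraries, as in 7.65% of all genes (in 7.97% all lay below).

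Oas3 (chromosome 5, 120753098 to 120777684), an oligoadenylate synthetase that senses double-stranded RNA, stood at 45.4 and 57.3 CPM in the vehicle libraries at 24 h, 21.3 and 21.7 in those at 48 h, 133 and 130.4 in the ATP libraries at 24 h and 56.2 and 48.3 in those at 48 h. Within each time the ATP libraries were higher, but those at 48 h overlapped the vehicle libraries at 24 h. Its change was 1.33 ± 0.0746 SE, adjusted p = 1.93e-06. Oas2, of the same family, stood at 327 and 346 CPM (vehicle) against 550.1 and 554 CPM (ATP) at 24 h and 253 and 266 against 512 and 429 at 48 h, with no overlap at all and a change of 0.79 ± 0.0526 SE, adjusted p = 4.75e-07.

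Zbp1 (chromosome 2, 173206612 to 173218959), a sensor of Z-form nucleic acids that can start necroptosis, stood at 176 and 204 CPM (vehicle) against 380.1 and 370.5 CPM (ATP) at 24 h and 85.1 and 92.7 against 226 and 199 at 48 h, a change of 1.12 ± 0.0759 SE, adjusted p = 2.33e-05. Its ATP libraries were higher within each time. Ifi27, an interferon-inducible membrane protein gene, read 53.5 and 53.1 CPM (vehicle) against 96.4 and 95.01 CPM (ATP) at 24 h and 89.2 and 93.1 against 118 and 122 at 48 h. It was the only interferon-stimulated gene tested whose effect differed between times in the direct test, being smaller at 48 h (difference -0.45 ± 0.0608 SE, adjusted p = 4.40e-04). In the fit of all 20 CF libraries 0 members of the list were called smaller at 48 h. With no filter beyond 1 count 2 were called smaller and 2 larger. Outside the list, the interferon-inducible GTPase gene Tgtp1 ranged over 4.78 to 11.2 CPM in vehicle and 11.4 to 30.1 CPM in ATP libraries (1.40 ± 0.07 SE, adjusted p = 7.79e-09), and Ifi206, of the PYHIN family, over 8.57 to 28.9 CPM in vehicle and 26.9 to 62.0 CPM in ATP libraries (1.46 ± 0.16 SE, adjusted p = 0.00148). Both have close paralogs, so reads may have been split among copies.

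The promoters of Oas3, Cxcl10 and Gbp2 are shown because they had the largest rises among the listed genes whose windows held the interferon-stimulated response element, spelled as TTTC, any 2 bases and TTTC again, searched on both strands. Cxcl10 encodes a chemokine that draws T cells (0.37, adjusted p = 6.65e-05), and Gbp2 a guanylate-binding protein (0.37, adjusted p = 0.00178). Of 29 listed genes with a window, 15 held the element, 12 of them among the 23 that rose; 3.79% of all 10945 tested genes with a window did. Capitals mark the element, whose first base lies at -75, -213 and -59 from the start in the 3 genes. That start is the transcript start each window was taken from, and for Oas3 it lies inside the span of the gene given above and not at its end.

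Oas3, chr5:120777610-120777909 (minus strand): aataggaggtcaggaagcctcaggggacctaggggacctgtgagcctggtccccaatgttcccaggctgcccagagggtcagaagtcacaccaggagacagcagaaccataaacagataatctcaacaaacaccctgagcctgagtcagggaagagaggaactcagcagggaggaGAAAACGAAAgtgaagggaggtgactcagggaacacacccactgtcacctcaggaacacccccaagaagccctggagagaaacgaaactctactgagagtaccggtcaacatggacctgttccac
Cxcl10, chr5:92348840-92349139 (minus strand): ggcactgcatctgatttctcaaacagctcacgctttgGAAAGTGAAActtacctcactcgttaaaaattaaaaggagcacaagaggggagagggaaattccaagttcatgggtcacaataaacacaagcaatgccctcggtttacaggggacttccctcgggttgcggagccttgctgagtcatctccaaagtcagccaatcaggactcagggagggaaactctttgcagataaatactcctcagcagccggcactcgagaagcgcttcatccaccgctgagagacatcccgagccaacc
Gbp2, chr3:142620413-142620712 (plus strand): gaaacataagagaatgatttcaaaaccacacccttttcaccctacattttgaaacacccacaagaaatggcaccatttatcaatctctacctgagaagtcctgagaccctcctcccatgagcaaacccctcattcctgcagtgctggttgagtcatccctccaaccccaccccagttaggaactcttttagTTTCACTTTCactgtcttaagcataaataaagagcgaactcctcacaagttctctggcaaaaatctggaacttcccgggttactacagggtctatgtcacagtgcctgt

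Ly6c1, a surface antigen of the Ly6 family, stood at 2.25 and 2.86 CPM in the vehicle libraries at 24 h, 1.36 and 1.37 in those at 48 h, 15.6 and 16.3 in the ATP libraries at 24 h and 13.1 and 10.4 in those at 48 h, a change of 2.86 ± 0.11 SE, adjusted p = 2.34e-09. Ly6a, which encodes the stromal progenitor antigen SCA-1, stood at 11.4 and 16.3 CPM (vehicle) against 62.1 and 60.7 CPM (ATP) at 24 h and 7.24 and 9.83 against 65.5 and 45.9 at 48 h, a change of 2.43 ± 0.22 SE, adjusted p = 0.00102. The groups were far apart in both genes, but the Ly6 genes are near copies of each other and reads could have been shared.

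Lcn2 (chromosome 2, 32384637 to 32387739), a lipocalin that withholds iron from bacteria, stood at 7.77 and 8.62 CPM in the vehicle libraries at 24 h, 7.09 and 8.24 in those at 48 h, 25.7 and 24.9 in the ATP libraries at 24 h and 35.1 and 31.0 in those at 48 h. The lowest ATP library was well above the highest vehicle library, and the change was 1.87 ± 0.0982 SE, adjusted p = 4.75e-07. Saa3, an acute phase serum amyloid, ranged over 11.9 to 15.8 CPM in vehicle and 33.6 to 55.5 CPM in ATP libraries (1.60 ± 0.19 SE, adjusted p = 0.00294), and Steap4, a metalloreductase induced by cytokines, over 9.63 to 10.9 CPM in vehicle and 23.0 to 41.7 CPM in ATP libraries (1.58 ± 0.14 SE, adjusted p = 1.90e-04). Cebpd, a transcription factor of the acute phase response, ranged over 107 to 121 CPM in vehicle and 149.9 to 208 CPM in ATP libraries and rose by 0.65 ± 0.0509 SE, adjusted p = 1.81e-06. Cd80, a costimulatory ligand for T cells, rose, with 3.59 to 4.37 CPM in vehicle and 10.9 to 16.5 CPM in ATP libraries (1.68 ± 0.13 SE, adjusted p = 5.03e-06), and Mpeg1, which encodes a pore-forming protein of macrophages, read 6.93 and 9.97 CPM (vehicle) against 24.4 and 23.0 CPM (ATP) at 24 h and 2.22 and 1.90 against 6.52 and 6.05 at 48 h (1.55 ± 0.10 SE, adjusted p = 3.03e-07).

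Over the list of 40 inflammatory and NF-kB genes, 19 rose and 1 fell, beside 10.8% and 10.1% of all genes, with a median of 0.33. The median was 0.20 at 24 h and 0.44 at 48 h, and 9 members had a larger effect at 48 h in the direct test (4 in the fit of all 20 CF libraries), against 2.52% of all genes. They included Lcn2 (difference 0.47 ± 0.12 SE, adjusted p = 0.0432), Steap4 (0.60 ± 0.13 SE, adjusted p = 0.0188), Cebpd (0.30 ± 0.057 SE, adjusted p = 0.00678) and Sod2 (0.43 ± 0.0624 SE, adjusted p = 7.58e-04), the mitochondrial superoxide dismutase. The gene that fell was Cx3cl1, which encodes the chemokine fractalkine (-0.29, adjusted p = 0.00102). The NF-kB inhibitor genes Nfkbia (0.08, adjusted p = 0.199) and Tnfaip3 (-0.05, adjusted p = 0.52) and the chemokine genes Cxcl1 (0.49, adjusted p = 0.0784) and Ccl2 (0.51, adjusted p = 0.0769) did not pass the test; these 4 were chosen after their values were seen, and Ccl2 passed in 5, Cxcl1 in 3 and Nfkbia in 1 of 18 alternative fits. Cxcl1 differed between times (0.64 ± 0.09 SE, adjusted p = 0.00206).

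Macrophage markers moved in the same libraries. The 8 markers summed to 8.203 to 9.505 CPM in vehicle and 10.6 to 14.1 CPM in ATP libraries. Cd68 (1.20 ± 0.13 SE, adjusted p = 6.92e-06) and Csf1r (1.19 ± 0.15 SE, adjusted p = 3.87e-05) rose and Lyz2 fell (-0.44 ± 0.0959 SE, adjusted p = 0.00387), while Adgre1, Ptprc, C1qa, C1qb and C1qc were too low to test. Their part in the rise of the inflammatory genes was not tested.

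**Figure D3:**
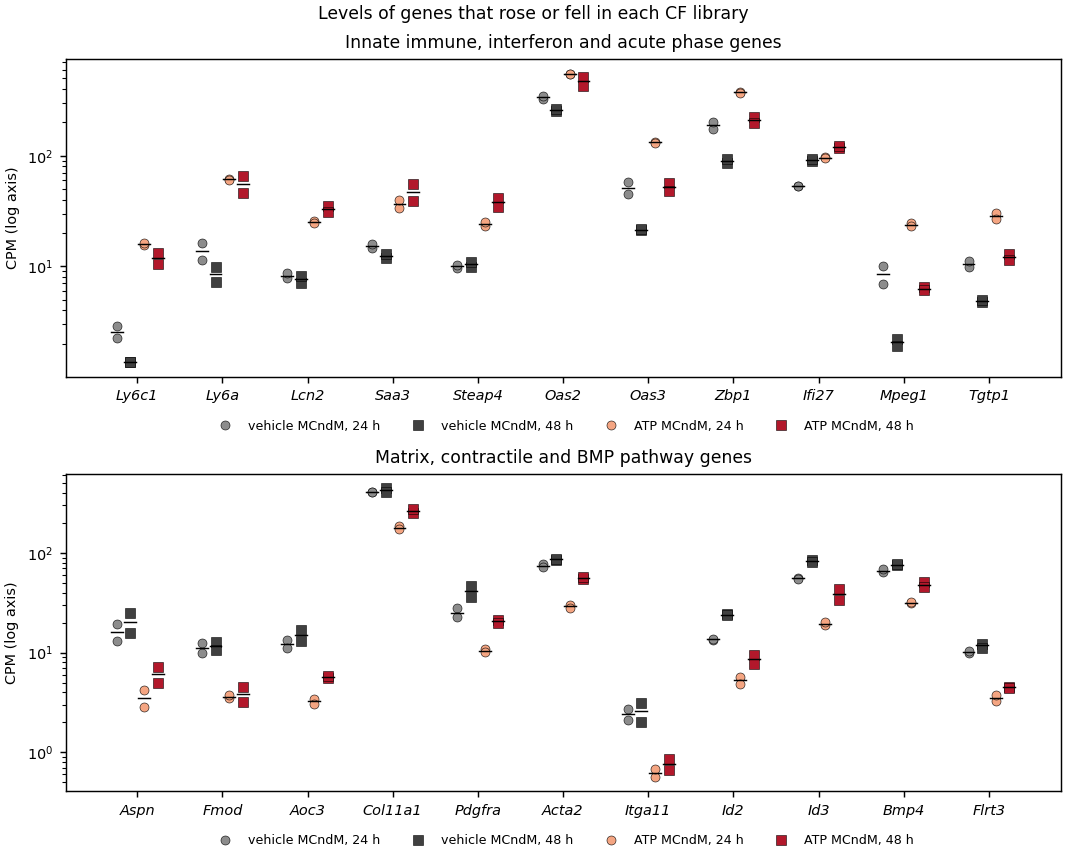
Points are CPM (log axis) of single CF libraries in vehicle MCndM (grey circles, 24 h; dark squares, 48 h) and ATP MCndM (orange circles, 24 h; red squares, 48 h), and short lines are means of 2 libraries. The upper panel holds genes that rose, where Ly6c1, Oas2, Oas3, Zbp1, Mpeg1 and Tgtp1 are also lower at 48 h than at 24 h in both media. The lower panel holds genes that fell.

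Matrix genes fell, and more so at 24 h. Of 73 ECM genes, 29 fell and 5 rose across both times, beside 10.1% and 10.8% of all genes, with a median of -0.16. At 24 h 45 fell and 4 rose (median -0.31), beside 9.94% and 9.32% of all genes. At 48 h 18 fell and 15 rose (median -0.03), beside 5.69% and 8.42%. Without vehicle 24 h replicate 1 the rises at 24 h numbered 2. Without vehicle 48 h replicate 1 the 48 h counts were 11 and 8, without ATP 48 h replicate 2 11 fell, and without vehicle 48 h replicate 2 7 rose. The direct test called a less negative or more positive effect at 48 h in 27 members and the opposite in none, beside 2.52% and 0.417% of all genes.

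Aspn and Fmod, which encode the collagen-binding proteoglycans asporin and fibromodulin, showed the 2 strongest falls of the list. Aspn stood at 19.1 and 13.2 CPM in the vehicle libraries at 24 h, 25.1 and 15.9 in those at 48 h, 4.20 and 2.87 in the ATP libraries at 24 h and 4.98 and 7.15 in those at 48 h, a change of -1.97 ± 0.26 SE, adjusted p = 0.00406. Fmod stood at 12.5 and 9.80 CPM (vehicle) against 3.46 and 3.70 CPM (ATP) at 24 h and 12.6 and 10.5 against 4.54 and 3.16 at 48 h, a change of -1.62 ± 0.12 SE, adjusted p = 6.08e-07. In both genes every ATP library was below every vehicle library. Col11a1, a fibril-forming collagen, stood at 412 and 408 CPM (vehicle) against 186 and 172 CPM (ATP) at 24 h and 448 and 408 against 254 and 275 at 48 h, where the 48 h ATP libraries lay closer to vehicle than the 24 h ones (-0.94 ± 0.11 SE, adjusted p = 0.00188; difference between times 0.50 ± 0.0738 SE, adjusted p = 0.00104). Col8a2, a short-chain collagen, ranged over 3.68 to 4.80 CPM in vehicle and 1.82 to 2.38 CPM in ATP libraries (-1.06 ± 0.12 SE, adjusted p = 1.82e-05).

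In the both-times test the 5 ECM genes that rose were a smaller share of the 73 than the 10.8% of all genes that rose. Dcn, which encodes decorin, ranged over 12.7 to 15.3 CPM in vehicle and 16.2 to 28.1 CPM in ATP libraries (0.58 ± 0.0891 SE, adjusted p = 7.03e-04), and Timp1, an inhibitor of matrix metalloproteinases, over 52.2 to 65.0 CPM in vehicle and 82.4 to 97.2 CPM in ATP libraries (0.64 ± 0.0697 SE, adjusted p = 1.50e-04). Has2, a hyaluronan synthase, rose more at 48 h than at 24 h (24.1 and 23.9 CPM (vehicle) against 29.6 and 27 CPM (ATP) at 24 h and 16.6 and 17.1 against 28.7 and 30.1 at 48 h; difference 0.57 ± 0.0898 SE, adjusted p = 0.00152). The other 2 were Mmp19, a metalloproteinase (0.29, adjusted p = 5.12e-05), and Spp1, which encodes osteopontin (0.90, adjusted p = 0.0197); the Spp1 call was lost without any one of the 4 vehicle libraries or without ATP 24 h replicate 1, with values from 0.79 to 1.02 over all alternatives. The count of rises was 8 without ATP 24 h replicate 2, without a filter or in the fit of all 20 CF libraries. It was 11 with 1 mean per medium and time, so the comparison with the share of all genes depended on the fit.

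Of 25 contractile and myofibroblast genes 10 fell and none rose across both times, beside 10.1% and 10.8% of all genes (12 were lower or higher at an unadjusted p under 0.05). At 24 h 9 fell and none rose (median -0.17), beside 9.94% and 9.32% of all genes. At 48 h 5 fell and 3 rose (median -0.01), beside 5.69% and 8.42%. The 48 h counts were 3 and 1 without vehicle 48 h replicate 1, and the falls numbered 3 without ATP 48 h replicate 2. The direct test called 5 members as more positive at 48 h (3 in the fit of all 20 CF libraries) and none as more negative, beside 2.52% and 0.417% of all genes. The summed smooth muscle or pericyte markers were also lower in ATP libraries at 24 h, as given above; the lists share Myh11, and the part of these markers in the contractile counts was not tested. Acta2, which encodes smooth muscle actin and marks myofibroblasts, stood at 76.9 and 72.6 CPM in the vehicle libraries at 24 h, 85.9 and 86.5 in those at 48 h, 30.1 and 28.3 in the ATP libraries at 24 h and 54.1 and 57.2 in those at 48 h. ATP libraries were lower at both times and more so at 24 h, with an effect at 24 h of -1.36, adjusted p = 1.61e-11, at 48 h of -0.63, adjusted p = 6.63e-08, and a difference of 0.73 ± 0.0717 SE, adjusted p = 6.99e-05. Itga11, a collagen receptor subunit of fibroblasts, ranged over 2.03 to 3.11 CPM in vehicle and 0.566 to 0.853 CPM in ATP libraries (-1.88 ± 0.19 SE, adjusted p = 3.71e-06). Pdgfra, the PDGF receptor that marks resident fibroblasts, stood at 27.8 and 22.6 CPM (vehicle) against 10.9 and 10.0 CPM (ATP) at 24 h and 46.4 and 36.1 against 21.3 and 19.8 at 48 h, a change of -1.13 ± 0.11 SE, adjusted p = 1.44e-04. Its groups were separate within each time and across both.

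Of 28 genes of the TGF-beta and BMP response, 10 fell and 4 rose, beside 10.1% and 10.8% of all genes, so the rises were near the share of all genes. Id2 and Id3, inhibitors of differentiation that BMP signals switch on, showed the 2 largest falls. Id2 stood at 13.3 and 13.8 CPM (vehicle) against 5.70 and 4.80 CPM (ATP) at 24 h and 24.5 and 23.7 against 9.48 and 7.70 at 48 h (-1.43 ± 0.0742 SE, adjusted p = 1.04e-08) and Id3 at 56.3 and 55.3 CPM (vehicle) against 18.7 and 20.3 CPM (ATP) at 24 h and 85.2 and 81.8 against 43.3 and 33.5 at 48 h (-1.30 ± 0.11 SE, adjusted p = 2.03e-04). The ligand gene Bmp4 fell, with 63.7 to 77.6 CPM in vehicle and 31.2 to 51.2 CPM in ATP libraries (-0.86 ± 0.0825 SE, adjusted p = 1.48e-04), less at 48 h than at 24 h (difference 0.39 ± 0.0832 SE, adjusted p = 0.0147). Grem1, a secreted BMP antagonist, rose, with 14.8 to 19.0 CPM in vehicle and 23.5 to 34.0 CPM in ATP libraries (0.75 ± 0.15 SE, adjusted p = 0.0136), as did the activin subunit gene Inhba (0.38, adjusted p = 1.95e-04). Smurf1, a ubiquitin ligase for SMAD proteins (0.13, adjusted p = 0.00939), and the coreceptor gene Tgfbr3 (0.27, adjusted p = 0.00151) were the others that rose. The ligand gene Tgfb2 fell by 0.64, adjusted p = 1.41e-06.

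Other falls were named by their size. Flrt3, a membrane adhesion protein, ranged over 9.80 to 12.3 CPM in vehicle and 3.29 to 4.56 CPM in ATP libraries (-1.45 ± 0.0777 SE, adjusted p = 1.24e-08), Slit3, a secreted guidance cue, over 6.63 to 12.5 CPM in vehicle and 2.09 to 6.40 CPM in ATP libraries (-1.20 ± 0.13 SE, adjusted p = 2.63e-05), and Gpc6, a glypican, over 52.3 to 82.8 CPM in vehicle and 19.6 to 47.2 CPM in ATP libraries (-1.09 ± 0.12 SE, adjusted p = 8.95e-04). Aoc3, an amine oxidase of mesenchymal cells, ranged over 11.02 to 16.7 CPM in vehicle and 3.08 to 5.80 CPM in ATP libraries (-1.64 ± 0.13 SE, adjusted p = 1.03e-05). Igfbp3, a carrier of insulin-like growth factors, read 16.9 and 15.2 CPM (vehicle) against 9.44 and 8.83 CPM (ATP) at 24 h and 27.04 and 27.8 against 14.2 and 14.8 at 48 h, a change of -0.87 ± 0.0566 SE, adjusted p = 6.82e-08. In the WNT and hedgehog list 7 of 22 fell and 1 rose, beside 10.1% and 10.8% of all genes; the riser was the ligand gene Wnt5a (0.57, adjusted p = 8.31e-05).

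Lipid synthesis genes fell together at 24 h, and fewer were called at 48 h. Of 33 genes of cholesterol and fatty acid synthesis, 31 fell and none rose at 24 h, beside 9.94% and 9.32% of all genes, with a median of -0.48. Across both times 9 fell and none rose, and the falls numbered 2 to 5 without any 1 of the libraries of 24 h or without ATP 48 h replicate 1, 23 without ATP 48 h replicate 2, 17 in DESeq2, 26 with 1 mean per medium and time and 27 in the fit of all 20 CF libraries. At 48 h 2 fell and 3 rose, beside 5.69% and 8.42%, with a median of -0.05; without ATP 48 h replicate 2 these were 9 and 0, without vehicle 48 h replicate 1 they were 1 and 0, and the falls numbered 1 without vehicle 48 h replicate 2 or without ATP 48 h replicate 1. The direct test called 26 of the 33 as differing between times, all less negative or more positive at 48 h, against 2.52% of all genes. Over the alternative fits the 24 h count of falls stayed between 27 and 32 and the count of differences between 22 and 32.

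Tm7sf2, a sterol reductase, stood at 71.3 and 78.3 CPM in the vehicle libraries at 24 h, 70.4 and 73.3 in those at 48 h, 42.3 and 40.9 in the ATP libraries at 24 h and 60.5 and 68.5 in those at 48 h. The 24 h ATP libraries were far below the other 6, and the difference between times was 0.68 ± 0.0849 SE, adjusted p = 3.09e-04. Acly, which makes cytosolic acetyl-CoA, had effects of -0.60 at 24 h and -0.20 at 48 h (difference 0.40 ± 0.0772 SE, adjusted p = 0.00765). For Acaca, which commits acetyl-CoA to fatty acids, they were -0.51 and -0.28 (difference 0.23 ± 0.0612 SE, adjusted p = 0.0498). Acss2, which makes acetyl-CoA from acetate, had -0.77 and -0.23 (difference 0.54 ± 0.13 SE, adjusted p = 0.101). In the both-times test 9 of the 33 fell. That count was 3 without vehicle 24 h replicate 1, 5 without vehicle 24 h replicate 2, 2 without ATP 24 h replicate 1, 5 without ATP 24 h replicate 2, 4 without ATP 48 h replicate 1, 23 without ATP 48 h replicate 2 and 27 in the fit of all 20 CF libraries.

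**Figure D4:**
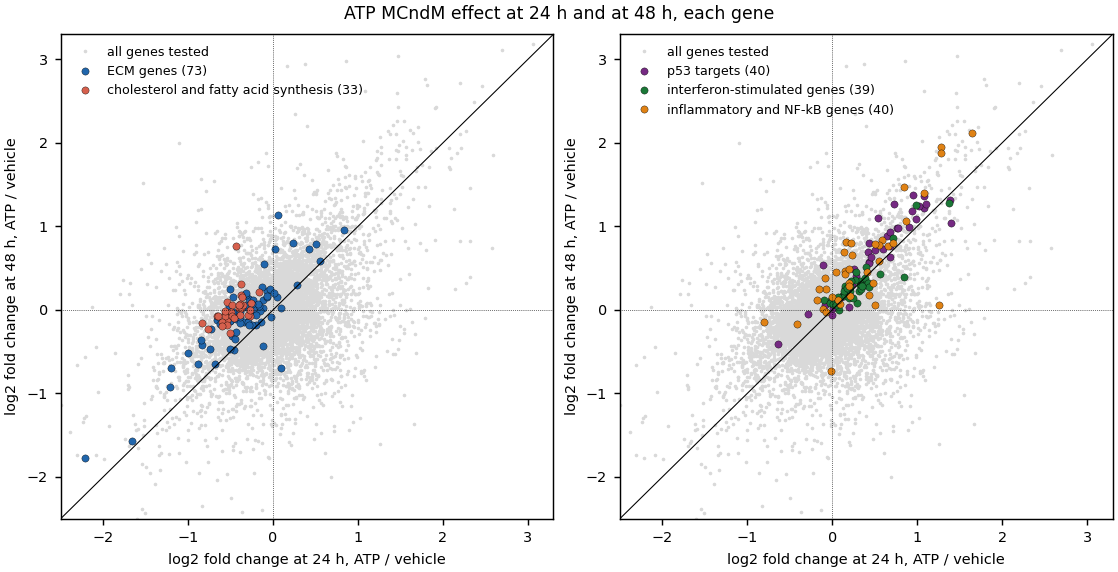
Each point is a gene, with the log2 fold change of ATP over vehicle MCndM at 24 h (x) and at 48 h (y); grey points are all genes tested, of which 9 lie outside the axes, and the diagonal marks equal effects. All 33 lipid synthesis genes and 67 of 73 ECM genes lie above the diagonal (left panel), and 35 of 40 p53 targets, 35 of 39 interferon-stimulated genes and 31 of 40 inflammatory genes are above 0 at both times (right panel).

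Purinergic and adenosine receptors were followed because their ligands are ATP and its breakdown products. Of 10 tested, 3 rose and 1 fell, beside 10.8% and 10.1% of all genes. P2rx7, an ATP-gated channel that needs high ATP, stood at 20.3 and 20.7 CPM in the vehicle libraries at 24 h, 17.8 and 19.8 in those at 48 h, 28.8 and 30.8 in the ATP libraries at 24 h and 33.3 and 27.3 in those at 48 h. Its groups did not overlap, and the change was 0.62 ± 0.0643 SE, adjusted p = 9.57e-06. P2rx4, a more sensitive ATP-gated channel, was higher at 48 h (0.40, adjusted p = 1.08e-05) and differed between times (0.33 ± 0.0676 SE, adjusted p = 0.0113). Over both times it rose by 0.24, adjusted p = 0.0194, a call lost without vehicle 48 h replicate 1, with values from 0.18 to 0.29. Its difference between times was not called in the fit of all 20 CF libraries.

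Both adenosine receptors that passed the test had low counts. Adora2b, the low-affinity receptor, ranged over 1.69 to 2.47 CPM in vehicle and 2.28 to 3.37 CPM in ATP libraries and rose by 0.57 ± 0.14 SE, adjusted p = 0.00688. Adora2a, the high-affinity receptor, ranged over 0.985 to 1.83 CPM in vehicle and 0.392 to 0.853 CPM in ATP libraries and fell (-1.23 ± 0.19 SE, adjusted p = 1.85e-04). P2rx6 differed between times (0.87 ± 0.19 SE, adjusted p = 0.0201), with an effect of -0.74 at 24 h and 0.13 at 48 h. P2rx4 and P2rx6 were the 2 receptors called for that difference. The count was 0 in the fit of all 20 CF libraries and 1 with library totals alone.

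Enzymes and transporters of extracellular nucleotides gave few calls across both times. Of 17 tested 0 passed with edgeR, beside 10.8% of all genes higher and 10.1% lower, and 3 had an unadjusted p under 0.05. DESeq2 called 1 lower, and edgeR with 1 mean per medium and time called 2 lower. At 24 h 2 fell, near the 9.94% of all genes that did. That count was 1 without vehicle 24 h replicate 1 or without ATP 24 h replicate 2. At 48 h 1 rose and 1 fell, beside 8.42% and 5.69% of all genes. The rise was lost without vehicle 48 h replicate 1, vehicle 48 h replicate 2 or ATP 48 h replicate 2. It was also lost with library totals alone and in the fit of all 20 CF libraries. Enpp1 stood at 6.20 and 5.81 CPM (vehicle) against 7.07 and 6.45 CPM (ATP) at 24 h and 8.14 and 6.06 against 5.80 and 7.00 at 48 h, a difference of 0.005, adjusted p = 0.982, and Nt5e, the CD73 enzyme that makes adenosine, at 1.27 to 1.97 CPM in vehicle and 0.932 to 2.03 CPM in ATP libraries (-0.18, adjusted p = 0.517).

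Of 29 genes of purine synthesis and salvage inside the cell, 7 rose and 3 fell, beside 10.8% and 10.1% of all genes, so the falls were near the share of all genes. Ak1, an adenylate kinase, led them, at 84.4 and 81.1 CPM (vehicle) against 139 and 129.6 CPM (ATP) at 24 h and 83.2 and 93.5 against 174 and 168 at 48 h (0.83 ± 0.0568 SE, adjusted p = 1.78e-06). Xdh, the xanthine oxidoreductase that ends purine breakdown, ranged over 296 to 422 CPM in vehicle and 403 to 553 CPM in ATP libraries (0.47 ± 0.0407 SE, adjusted p = 8.53e-07). The salvage enzymes Aprt, which takes up adenine, and Hprt, which takes up hypoxanthine, rose by 0.28, adjusted p = 1.48e-04 and 0.27, adjusted p = 2.05e-04. Of 29 pyrimidine genes 5 rose and none fell, beside the same shares (11 had an unadjusted p under 0.05). The rises numbered 3 with the replicate block and without vehicle 24 h replicate 1, vehicle 48 h replicate 1 or ATP 48 h replicate 1. The 5 included Ctps, a CTP synthetase (0.24, adjusted p = 0.001), and Cmpk2, a mitochondrial kinase of pyrimidine nucleotides (0.25, adjusted p = 6.17e-05), which the interferon list also holds. Umps, which makes UMP from orotate, read 84.3 to 86.7 CPM in vehicle and 84.5 to 91.8 CPM in ATP libraries (0.05, adjusted p = 0.338).

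Of 31 immediate early genes 15 rose and 2 fell, beside 10.8% and 10.1% of all genes, with a median of 0.22. Klf4 ranged over 45.5 to 58.7 CPM in vehicle and 82.3 to 103 CPM in ATP libraries (0.86 ± 0.0563 SE, adjusted p = 6.31e-07) and Fosl1, an AP-1 subunit, over 12.4 to 21.9 CPM in vehicle and 22.8 to 37.9 CPM in ATP libraries (0.76 ± 0.0571 SE, adjusted p = 2.43e-07), with no overlap between groups in either gene. Myc was 1 of the 2 that fell (-0.23, adjusted p = 0.00861), and the zinc finger gene Egr3 was the other (-0.69, adjusted p = 0.0464). Egr3 stood under 1 CPM in every library, and its call was lost without any one library other than ATP 24 h replicate 1 and in DESeq2, with values from -0.85 to -0.52. Of 43 cytosolic ribosomal protein genes 25 rose and none fell, beside the same shares, with a median of 0.13; the count was 16 without vehicle 48 h replicate 1, and the median lay between 0.11 and 0.17 in all alternatives. Rps19 led them (0.41 ± 0.0363 SE, adjusted p = 1.11e-06).

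Of 37 genes of the ATF4 and integrated stress response, which restrains translation, 12 fell and 4 rose, the rises being at the 10.8% of all genes and the falls beside 10.1%; without vehicle 24 h replicate 2 or without ATP 48 h replicate 1 the falls numbered 7. Ddit3, a stress transcription factor, was among those that rose (0.37, adjusted p = 7.11e-04), as was Ddit4, an inhibitor of mTORC1 (0.37, adjusted p = 0.001), whose effect was larger at 48 h (difference 0.31 ± 0.0688 SE, adjusted p = 0.0185). The Ddit4 difference between times was not called in the fit of all 20 CF libraries. Txnip, an inhibitor of thioredoxin, read 105 and 116.1 CPM (vehicle) against 199 and 193 CPM (ATP) at 24 h and 98.7 and 105 against 187 and 173 at 48 h, a change of 0.83 ± 0.0398 SE, adjusted p = 5.95e-09. Angptl4, a secreted inhibitor of lipoprotein lipase, was low but separate between groups, at 0.793 to 1.01 CPM in vehicle and 2.94 to 3.88 CPM in ATP libraries (1.96 ± 0.14 SE, adjusted p = 2.22e-07). Fabp5, a fatty acid carrier, fell, with 32.9 to 36.7 CPM in vehicle and 17.96 to 27.6 CPM in ATP libraries (-0.70 ± 0.12 SE, adjusted p = 0.00493).

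Among the largest rises, other genes were Ces2e, a carboxylesterase with close paralogs (2.18 ± 0.26 SE, adjusted p = 0.00288), Ano3, an anoctamin (1.45 ± 0.0887 SE, adjusted p = 8.57e-07), Celf5, an RNA-binding protein (1.33 ± 0.15 SE, adjusted p = 1.21e-04), and Mab21l3 (1.32 ± 0.18 SE, adjusted p = 0.00199). In all 4 each ATP library was above each vehicle library. Among the largest falls, others were Lrrc75b (-1.15 ± 0.0904 SE, adjusted p = 3.77e-07), the serine protease gene Prss12 (-1.15 ± 0.12 SE, adjusted p = 6.75e-06), the calcium sensor gene Vsnl1 (-1.07 ± 0.14 SE, adjusted p = 9.91e-05), the secreted factor gene Ism1 (-1.12 ± 0.15 SE, adjusted p = 2.32e-04) and the histone gene Hist2h3c2 (-1.12 ± 0.14 SE, adjusted p = 5.21e-05), which has near-identical copies.

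The effect differed between 24 h and 48 h for 486 genes (2.94%), with 417 (2.52%) more positive at 48 h and 69 (0.417%) more negative; the split was 201 and 158 with scaling to library totals alone, and 196 and 12 in the fit of all 20 CF libraries. The plot of both times shows the ECM and lipid synthesis members of this set. Hp, the haemoglobin scavenger haptoglobin, stood at 23.7 and 19.6 CPM in the vehicle libraries at 24 h, 17.9 and 15.5 in those at 48 h, 32.1 and 29.9 in the ATP libraries at 24 h and 40.4 and 47.4 in those at 48 h. ATP libraries were higher at both times, by more at 48 h (difference 0.89 ± 0.16 SE, adjusted p = 0.0177). Cd55, which protects cells from complement, read 6.33 and 6.68 CPM (vehicle) against 6.77 and 6.87 CPM (ATP) at 24 h and 8.41 and 8.40 against 17.1 and 15.01 at 48 h, with effects of 0.08 at 24 h and 0.94 at 48 h (difference 0.86 ± 0.14 SE, adjusted p = 0.0014). The effect on Vax2os, an antisense gene, was -1.55 at 24 h and -0.57 at 48 h (difference 0.98 ± 0.20 SE, adjusted p = 0.0116); the strand setting of the counting is not given in the sources used here, so reads of its partner may be included. In the other direction, Angptl6, a secreted angiopoietin-like factor, had effects of 0.18 at 24 h and -0.52 at 48 h (difference -0.70 ± 0.14 SE, adjusted p = 0.00678).

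The response was next set beside those to the other 3 media of the study, in 1 fit of all 20 CF libraries with 17879 genes tested. The effects over vehicle share the vehicle libraries, so only direct tests between media are read as differences. In this fit ATP MCndM differed from vehicle in 3007 genes (16.8%). Medium from NRVMs given ENPP1 alone differed from vehicle in 0 genes (0%) with edgeR, where 819 genes had an unadjusted p under 0.05. On the 8 ENPP1 and vehicle libraries alone edgeR called 1 gene and DESeq2 34. ENPP1+ATP MCndM differed from vehicle in 9927 genes (55.5%) and AMP MCndM in 10115 (56.6%). Tested directly, ATP MCndM differed from ENPP1 MCndM in 2870 genes (16.1%), from ENPP1+ATP MCndM in 8916 (49.9%) and from AMP MCndM in 9086 (50.8%). The 24 h replicates of AMP MCndM were the furthest apart of all 10 replicate pairs in a chi-square test of their counts (33.5 per degree of freedom, against 5.90 to 11.6 in the other pairs), with mitochondrially encoded RNA at 3.87% and 2.46% of their counts. The part of this gap in the differences from AMP MCndM was not tested.

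The p53 targets had smaller effects in ATP than in ENPP1+ATP or AMP MCndM. Their median over vehicle was 0.61 with ATP, 1.35 with ENPP1+ATP and 1.44 with AMP. Of 40 targets 34 were lower in ATP than in ENPP1+ATP MCndM and 1 higher, beside 23.9% and 26.0% of all genes, and 36 were lower than in AMP MCndM and 2 higher, beside 24.2% and 26.6%. For Cdkn1a the effects over vehicle were 1.14 with ATP, 2.14 with ENPP1+ATP and 2.36 with AMP, and the difference of ATP minus AMP was -1.21, adjusted p = 5.96e-07. Of the G2 and mitosis genes 59 of 62 were lower in ATP than in ENPP1+ATP MCndM. Lipid synthesis genes were all 33 higher in ATP than in ENPP1+ATP MCndM, their medians over vehicle being -0.23 and -1.51.

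Interferon-stimulated genes were higher in ATP than in those media. Their median over vehicle was 0.23 with ATP, -0.41 with ENPP1+ATP and -0.42 with AMP. Of 39 genes 34 were higher in ATP than in ENPP1+ATP MCndM and 2 lower, beside 26.0% and 23.9% of all genes. Against AMP MCndM the counts were 34 and 3, beside 26.6% and 24.2%. Zbp1 was higher than with ENPP1+ATP by 2.05, adjusted p = 3.75e-06 and than with AMP by 2.05, adjusted p = 3.68e-06. Oas3 was higher than with ENPP1+ATP by 1.66, adjusted p = 9.97e-05. Over vehicle, Zbp1 had effects of 1.12 with ATP, -0.93 with ENPP1+ATP and -0.93 with AMP.

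Other single genes were also compared directly. Ly6a was higher with ATP than with ENPP1+ATP by 1.13, adjusted p = 0.00237, Saa3 by 1.07, adjusted p = 2.87e-05 and Cebpd by 1.45, adjusted p = 1.10e-17. Lcn2 showed no difference that passed the test against ENPP1+ATP, at -0.07, adjusted p = 0.54, and was lower than with AMP (-0.49, adjusted p = 1.65e-04). Mpeg1 was higher than with AMP by 3.24, adjusted p = 6.35e-15. Ribosomal protein genes were higher in ATP than in ENPP1+ATP MCndM in 43 of 43 cases, beside 26.0% of all genes. Their medians over vehicle were 0.13 and -0.40. Among single genes, Adora2b was higher by 1.21, adjusted p = 2.63e-05 and Xdh by 0.68, adjusted p = 4.04e-05, whereas Id2 (-0.33, adjusted p = 0.00334) and Acta2 (-0.35, adjusted p = 6.64e-06) were lower.

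**Figure D5:**
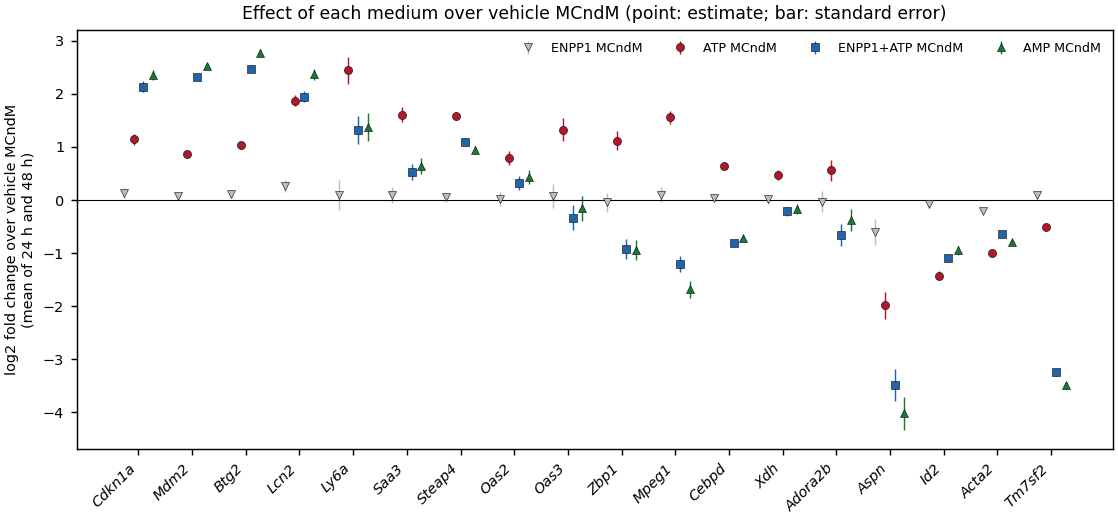
Points are log2 fold changes over vehicle MCndM, averaged over 24 h and 48 h, of 18 genes in ENPP1 (grey), ATP (red), ENPP1+ATP (blue) and AMP MCndM (green), with standard errors as bars, from 1 fit of 20 CF libraries. Oas3, Zbp1, Mpeg1, Cebpd, Xdh and Adora2b lie above 0 with ATP and below 0 with ENPP1+ATP and AMP, and the p53 targets Cdkn1a, Mdm2 and Btg2 lie lower with ATP than with those media.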

How the data were processed

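RNA of immortalized mouse CFs in ATP or vehicle MCndM was measured by bulk RNA-seq, with 2 libraries for each medium and time. The authors deposited raw whole-number counts per gene symbol in 1 table. The submitters' processing notes name STAR 2.5.3a and the build mm10; the counting tool, annotation and strand setting are not given in the sources used here. Every column of the table was matched to a sample by its name.

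Counts were filtered with filterByExpr, scaled by TMM and tested with edgeR 4.0.16 (R 4.3.3) by its quasi-likelihood test, robust, with Benjamini-Hochberg adjustment over all genes tested and a threshold of 0.05. The both-times comparison used medium and time as terms (5 residual degrees of freedom). Single times and their difference came from 1 mean per medium and time. Other media were compared in 1 fit of 20 CF libraries. CPM are TMM-scaled. The scripts were tested on simulated data. Promoter sequences and coordinates are RefSeq's (GRCm38.p6), matched by symbol.

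Genes named were up to 15 largest rises and falls (separate groups at each time, log2 CPM averaging 2 or more), up to 4 per list and members called against their list, nucleotide receptors and enzymes, genes the study drew or named, and up to 6 differences each way between times. Sqle and a few others were added for their role or where the text says so. Members and lists were chosen with earlier results of these data known. Alternatives were DESeq2 1.42.0, other scalings and filters, all 20 libraries, the replicate block and leaving out each library. The NRVM and single-cell tables were not used here. One gene is not reported here.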

Additional observations from a re-analysis of the deposited data

Results flagged for a closer look

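The effect of ATP MCndM differed between 24 h and 48 h for 486 genes by the edgeR test of the difference itself, which flagged them and the genes below. Values are the effect at 48 h minus that at 24 h on the log2 scale, and each adjusted p was under 0.05 over all genes tested. In the fit of all 20 CF libraries 208 genes were called, and Bcl2l1, Ifi27, Lcn2, Cebpd, P2rx4, P2rx6 and Ddit4 were not among them. With library totals alone 359 genes were called, without Bcl2l1. Of 40 p53 targets 5 were called, against 3 in the fit of all 20 CF libraries and 2 with library totals alone.

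Among p53 targets and survival or cell cycle genes the difference was 0.65 for Fas, 0.26 for Ei24, 0.24 for Bcl2l1, 0.28 for Rrm2 and -0.26 for Cdc25b. Among immune genes it was -0.45 for Ifi27, 0.47 for Lcn2, 0.60 for Steap4, 0.30 for Cebpd, 0.89 for Hp, 0.43 for Sod2, 0.64 for Cxcl1 and 0.86 for Cd55. Among matrix, contractile and signalling genes it was 0.50 for Col11a1, 0.73 for Acta2, 0.57 for Has2, 0.39 for Bmp4 and 0.53 for Gpc6.

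In lipid synthesis it was 0.68 for Tm7sf2, 0.23 for Acaca, 0.40 for Acly and 0.43 for Sqle. Sqle, which encodes squalene epoxidase, had effects of -0.54 at 24 h and -0.12 at 48 h. The channel genes P2rx4 and P2rx6 gave 0.33 and 0.87. The rest were Vax2os at 0.98, Ddit4 at 0.31 and Angptl6 at -0.70. Whether time in the medium or another difference between the cultures of each time moves with these values cannot be told apart.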

How the results depend on the processing

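The both-times count of 3459 kept within 1.5 times under every alternative: 3369 with DESeq2, 3445 with RLE scaling, 3408 with library totals, 3783 without a filter, 3437 with a 1 CPM filter, 3007 with all 20 libraries, 4316 with 1 mean per medium and time, 3363 with vehicle 24 h replicate 1 thinned (chosen after seeing the data), and 2585 to 3220 leaving out 1 library. At 24 h the count was 1983 with all 20 libraries and 1841 to 2637 leaving out 1 library, and at 48 h 1400 and 1031 to 1812. The difference between times gave 893 genes without a filter, where more genes were tested, and 208 with all 20 libraries. The direct tests against ENPP1, ENPP1+ATP and AMP MCndM gave 2890, 8886 and 9094 with RLE scaling and 2936, 8903 and 9078 with library totals. Why these counts moved was not tested.

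Same-numbered libraries did not deviate together (correlation of deviations -0.143 at 24 h and -0.0353 at 48 h), so the numbers were not taken as pairs. With a replicate block 2631 genes were called, 2612 of them shared with the fit without it in the same direction, and with the 24 h numbers crossed, a fit chosen after seeing the data, 2545. The block ended the calls of Cd82, Mcm4, P2rx4, Hp, Sqle and Egr3 among the genes tried. With the 24 h numbers crossed, the calls of Bak1, Grem1 and Spp1 were lost as well, and that of P2rx4 was not.

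For 125 genes tried, 2144 values kept their direction and side of the threshold, 60 lost the call, 32 gained one and 11 changed sign. The sign changes were in Enpp1 and Bcl2, which were called in no fit. Enpp1 was -0.01 with library totals, 0 without a filter and -0.05 to 0.14 leaving out 1 library, and Bcl2 was 0 with the 1 CPM filter and -0.04 to 0.06 leaving out 1 library. The Hp call was lost in 8 of 18 fits (0.81 to 1.12) and that of Sqle in 8 (-0.39 to -0.26). With 2 libraries for each medium and time, small effects are estimated with few degrees of freedom, and genes under the count filter were not tested.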

Other observations

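Glucocorticoid-responsive genes were among the lists not described above. Of 14 tested, 7 rose and 2 fell, with a median of 0.11, beside 10.8% and 10.1% of all genes. The 7 include Lcn2, Cebpd and Angptl4, which are described above, and Lcn2 and Cebpd are also in the inflammatory list. The rises numbered 5 in the fit of all 20 CF libraries. Of 32 genes of glycolysis and the hypoxia response 9 rose and 4 fell across both times. By time there were 1 higher and 7 lower at 24 h (median -0.01), beside 9.32% and 9.94% of all genes, and 10 higher and 1 lower at 48 h (median 0.11), beside 8.42% and 5.69%, the 10 becoming 3 without vehicle 48 h replicate 1 and 5 without ATP 48 h replicate 1. Across both times the rises numbered 3 without vehicle 48 h replicate 1, 5 without vehicle 48 h replicate 2 and 4 without ATP 48 h replicate 1, while the falls numbered 2 without vehicle 24 h replicate 2. The rises numbered 3 with the replicate block and 2 with its numbers crossed at 24 h, and the falls 7 with library totals alone or with no filter beyond 1 count and 9 with 1 mean per medium and time. Of 23 YAP and TEAD targets 6 rose and 8 fell. Of 33 growth factor and IGF system genes 1 rose and 8 fell, and the rise was lost without vehicle 24 h replicate 2, vehicle 48 h replicate 1 or vehicle 48 h replicate 2. The 13 mitochondrially encoded genes included 2 that fell and none that rose across both times. The falls numbered 0 without vehicle 24 h replicate 1, vehicle 24 h replicate 2, vehicle 48 h replicate 1, ATP 24 h replicate 1 or ATP 24 h replicate 2, and 1 without ATP 48 h replicate 2. At 24 h 6 fell (3 without ATP 24 h replicate 2), with a median of -0.34, and at 48 h none was called, with a median of 0.03.

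In the comparison with other media, ATF4 and integrated stress response genes were higher in ATP than in ENPP1+ATP MCndM in 33 of 37 cases and lower in 3. Of 26 myofibroblast and contractile genes 15 were lower and 4 higher. Of all genes 26.0% were higher and 23.9% lower in this comparison. Mitochondrially encoded RNA made up 2.02% to 2.26% of the counts in the ATP libraries and 2.79% to 5.37% in the ENPP1+ATP libraries. In the AMP libraries it was 2.46% to 4.47%. The part of these values in the differences between media was not tested.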
